A study of Mus musculus with 7 samples.

Results

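The 10 genes described here encode parts of the machinery that reports amino acid supply to mTORC1, and they were taken by symbol from the 57126 genes of the deposited expression table. They are Nprl2, Nprl3 and Depdc5 of the GATOR1 complex, Castor1, an arginine sensor, Lamtor1, Lamtor2, Lamtor4 and Lamtor5 of Ragulator, and the Rag GTPases Rraga and Rragc. Nprl2 led to the set: it was chosen by its TPM values, which were higher in all 4 Botox libraries than in all 3 PBS libraries, so its own difference is given as a description with no test. The other 9 were added as its complex partners and as the proteins on which GATOR1 acts. All 10 were found in the table.

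mTORC1 is a kinase complex that drives protein synthesis and cell growth when nutrients are present. Rag GTPases, which work as pairs of a RagA or RagB with a RagC or RagD, bring mTORC1 to the lysosome surface when amino acids are plentiful, and the Ragulator complex anchors them there. GATOR1 switches the pathway off by making RagA or RagB hydrolyse its GTP, and GATOR2, which Castor1 binds when arginine is scarce, opposes GATOR1. Losses of GATOR1 subunits occur in human tumors, and Nprl2 was first described as a candidate tumor suppressor gene.

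The libraries came from 4T1 cells, a mouse triple-negative mammary carcinoma line, that carried the red fluorescent protein mCherry. The cells grew as tumors in the mammary fat pad of BALB/c mice, the strain of the line, and mCherry-positive cells were sorted from the tumors before RNA extraction. In 3 mice the fat pad had received 100 µL of PBS 7 days before the tumor cells, and in 4 mice it had received 0.3 units of Botox, a botulinum neurotoxin preparation that blocks transmitter release from nerve endings, in the same volume and at the same time. The toxin therefore went into the host tissue and not onto cultured cells, and every tumor came from the same line. A separate mouse is named for each library, the labels give no age for the mice, and a treatment field that reads as untreated for every library was not used for grouping. RNA was ribodepleted, and a stranded library kit was used.

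Values are transcript abundances in TPM, scaled to a fixed total per library, computed by the authors with the genomic span of each gene, introns included, as its length. The TPM of low genes rises in steps of 1 read, and from these steps the libraries were estimated to hold between 8.56 M and 13.6 M reads each. The libraries did not measure weak genes equally well. Among 1566 protein-coding genes with a mean of 10 to 30 estimated reads in PBS, 0.128% to 0.383% were listed at 0 in the PBS libraries, against 0.830%, 30.8%, 9.71% and 51.0% in Botox replicates 1 to 4. The share of reads on the abundant 7SL RNAs was 8.06% to 9.63% in PBS and 11.2% to 24.4% after Botox, highest in Botox replicate 4. A test was run on the 11260 genes that reached 1 TPM in 3 or more libraries, and 93.8% of them had a negative log2 fold change after Botox, with a median of -0.46, which size factors (a per-library scale set by the genes present in every library) moved to -0.04. Values for the members are therefore given on the deposited scale and after size factors.

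The sorted cells were checked against marker genes. All 6 tumor cell markers were tested, and their summed TPM was 716 to 787 in PBS and 212 to 746 after Botox. Most of that sum was Vim, at 502 to 535 TPM in PBS and 138 to 499 after Botox. Vim is a mesenchymal gene that 4T1 cells express, and it does not mark tumor cells alone. The 5 epithelial genes summed to 211 to 252 in PBS and 74.4 to 247 after Botox. Of the 10 macrophage markers 9 were tested, with sums of 698 to 989 in PBS and 180 to 918 after Botox, lowest in Botox replicate 1. Sums for neutrophil (2 of 5 tested), erythroid (3 of 6) and fibroblast markers (2 of 6) lay below 20 TPM in every library, and none of the lymphocyte, endothelial or nerve and Schwann markers passed the filter. Among the nerve markers, Uchl1 was listed at 0 in all 7 libraries and Snap25, the protein that Botox cleaves, in 6. The part of admixed cells in the results below was not tested, and fewer cells of a type cannot be told apart from less RNA per cell in these bulk libraries.

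Nprl2 lies at chr9:107419425-107422905 (mm39, plus strand), where its span of 3481 bases holds a longest coding transcript of 1441 bases (GENCODE M21). The sequence in front of the gene is shown because Nprl2 is the member the results turn on, and because this stretch is shared with the divergent gene Cyb561d2, whose end lies 32 bases away in the deposited table. The 250 bases before the RefSeq start of Nprl2 (GRCm38.p6, chr9:107541959-107542208, plus strand) are shown in full, and the capitals mark ACTTCCGG, the reverse complement of the ETS-type motif CCGGAAGT.
Nprl2 upstream: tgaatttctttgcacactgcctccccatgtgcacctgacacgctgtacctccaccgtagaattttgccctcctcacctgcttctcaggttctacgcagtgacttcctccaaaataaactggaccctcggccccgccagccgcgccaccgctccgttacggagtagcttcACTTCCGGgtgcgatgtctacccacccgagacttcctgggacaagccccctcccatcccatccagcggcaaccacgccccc

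Promoter windows of 300 bases, 250 before and 50 after the start, were in the RefSeq table for 10 of 10 members. They were searched on both strands for the ETS-type motif and for CACGTG, a palindrome that is the core of the E-box bound by the TFEB family of lysosomal gene regulators. The motifs share no overlap in the members. CACGTG was in 3 members and in 7.15% of all 32851 windows, and CCGGAAGT or its reverse complement was in 2 members and in 3.89% of all windows. The matches are shown with their surroundings, with the motif in capitals, as a description of the sequences and not as evidence of a bound site.
Lamtor1 (GRCm38.p6, chr7:101905757-101905786, plus strand): ctgccttcctatCACGTGccgcgggtccgc
Lamtor4, first match (chr5:138255350-138255379, plus strand): gcagaaagttaaCACGTGaacagcttttca
Lamtor4, other match (chr5:138255366-138255395, plus strand): tgaacagcttttCACGTGtaaaccaaacca
Rragc (chr4:123917309-123917338, plus strand): ggtgattccgggCACGTGatagtaccactt
Nprl2 (chr9:107542117-107542146, plus strand): ggagtagcttcACTTCCGGgtgcgatgtct
Rraga (chr4:86575612-86575641, plus strand): cgatgtcgccaCCGGAAGTgggtggcggca
Lamtor1, Lamtor4 and Rragc thus carried the E-box letters 68, 120 and 112 bases before their starts (and Lamtor4 a further one at 104 bases), while Nprl2 and Rraga carried the ETS-type letters 81 and 50 bases before theirs.

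Before any comparison of groups, the members differed in level. Reads per kilobase of the longest coding transcript, scaled to RPM (a fixed total of estimated reads per library), were compared between genes, since the deposited TPM divides by spans that are up to 18.6 times the transcript for Lamtor1 and equal to it for the intronless Rraga. On this scale the PBS means ran from 48.9 ± 2.42 for Rraga and 44.2 ± 1.52 for Rragc through 27.6 ± 1.00 for Lamtor1, 16.3 ± 2.81 for Lamtor5 and 6.05 ± 1.63 for Lamtor4 (SD, n = 3). The GATOR1 genes lay lower, at 3.83 ± 0.975 for Nprl3, 1.29 ± 0.0507 for Depdc5 and 0.868 ± 0.266 for Nprl2, with Castor1 at 1.253 ± 0.296 and Lamtor2 lowest at 0.580 ± 0.255. The Rag GTPases and most of Ragulator were thus the stronger members and the GATOR1 genes the weaker ones. Neighbours in this order had overlapping PBS ranges for Lamtor4 and Nprl3, for Depdc5 and Castor1, and for Nprl2 and Lamtor2. Reads in introns, if counted, would raise genes with long introns on this scale, and how introns were treated is not given in the sources used here.

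Nprl2 carries the catalytic arginine of GATOR1, the residue that acts on the GTP held by RagA. Its TPM was 0.762, 0.665 and 0.387 in PBS replicates 1 to 3 and 1.26, 1.35, 1.34 and 1.01 in Botox replicates 1 to 4. The groups did not overlap, with Botox replicate 4 the lowest of the Botox libraries and PBS replicate 1 the highest of the PBS libraries. The means were 0.605 ± 0.194 (SD, n = 3) and 1.24 ± 0.161 (SD, n = 4), a difference of 0.49 ± 0.23 (SE) on the log2(TPM + 1) scale, which understates the change of a gene this low. After size factors the difference was 0.77 ± 0.18 on the same scale. Nprl2 was 1 of 17 genes, or 0.151% of the 11260 tested, with every Botox value above every PBS value, and it reached the filter only through the Botox libraries. With size factors 3.98% of the tested genes had that pattern, Nprl2 among them.

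The margin was small in absolute terms. Ordered by the ratio of the lowest Botox to the highest PBS value, Nprl2 was the third of the 17, with a log2 ratio of 0.40, behind the pseudogene Gm16304 at 5.45 and the noncoding RNA gene Gm20402 at 3.39 and ahead of the noncoding Gm13496 at 0.35. Siva1, a gene linked to apoptosis, was the other protein-coding gene of the 17, with a log2 ratio of 0.02. The last gene inside was Gm48074 with a log2 ratio of 0.00874, and just outside were 1700120K04Rik and Gm55300, whose lowest Botox and highest PBS values were both 0.

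In estimated reads, Nprl2 had 13, 18 and 11 in the PBS libraries and 31, 39, 28 and 36 in the Botox libraries. Exact Poisson intervals at 95%, which cover counting error only, were 6.92 to 22.2, 10.7 to 28.4 and 5.49 to 19.7 in PBS and 21.1 to 44.0, 27.7 to 53.3, 18.6 to 40.5 and 25.2 to 49.8 after Botox. The interval of PBS replicate 2 overlapped those of all 4 Botox libraries, that of PBS replicate 1 overlapped Botox replicates 1 and 3, and that of PBS replicate 3 overlapped Botox replicate 3. These counts were not scaled for depth, so the overlaps do not compare levels. Depth was 8.75 M, 12.3 M and 13.6 M reads in PBS replicates 1 to 3 and 8.56 M to 10.5 M after Botox. In RPM, the values were 1.49, 1.46 and 0.809 in PBS against 3.08, 3.72, 3.27 and 4.05 after Botox. Botox replicate 4 was the lowest Botox library by TPM and the highest by RPM.

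**Figure D1:**
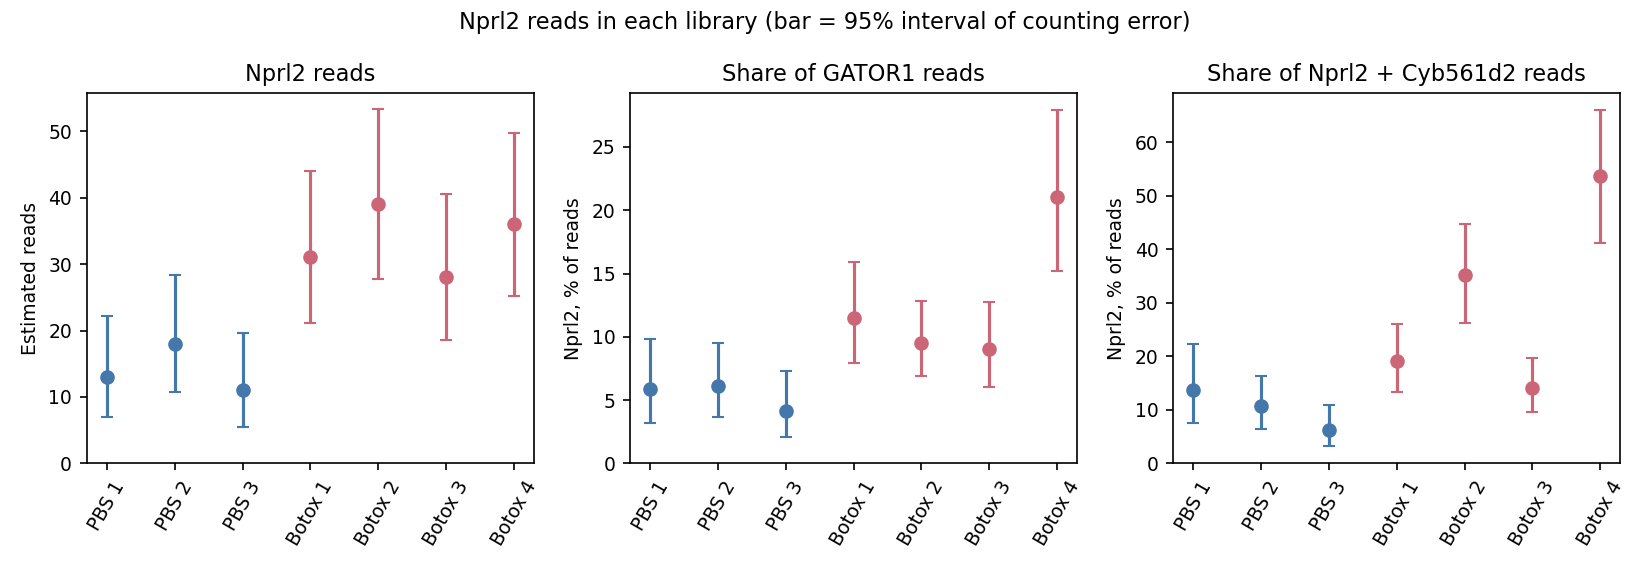
Estimated Nprl2 reads in each library (left), Nprl2 reads as a percent of all GATOR1 reads (middle) and as a percent of Nprl2 plus Cyb561d2 reads (right), with bars for the 95% interval of counting error. The 3 PBS libraries hold 11 to 18 Nprl2 reads and the 4 Botox libraries 28 to 39, and in each panel every Botox point lies above every PBS point. The reads on the left are not scaled for depth, and every panel uses the Nprl2 reads that chose the gene.

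Nprl3, the subunit that pairs with Nprl2, did not separate the groups. Its TPM was 0.578, 0.425 and 0.319 in PBS and 0.376, 0.701, 0.724 and 0.313 after Botox. Botox replicates 2 and 3 lay above all PBS libraries and replicate 4 lay below them. After size factors the TPM was 0.408, 0.350 and 0.248 in PBS and 0.352, 0.773, 0.627 and 0.688 after Botox, so that Botox replicates 2, 3 and 4 lay above the PBS range and replicate 1 within it. On the deposited scale the means were 0.441 ± 0.130 (SD, n = 3) and 0.528 ± 0.214 (SD, n = 4), and after size factors they were 0.335 ± 0.0810 and 0.610 ± 0.182. The gene was under the filter. Without the filter, limma put the difference at 0.08 ± 0.13 (SE, Benjamini-Hochberg adjusted p = 1) on the log2(TPM + 1) scale. That scale understates the change of a gene this low. Nprl3 (chr11:32175628-32217707, mm39, minus strand) overlaps the DNA repair gene Mpg on the opposite strand over 6196 bases, and because the strand setting of the counting is not given in the sources used here, reads of the overlap cannot be told apart.

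Depdc5, the GATOR1 subunit that contacts the Rag pair, was listed at 0 in a single library. On the deposited scale it had the smallest spread of the members in PBS relative to its mean. After size factors it did not, with PBS means of 0.105 ± 0.00599 for Depdc5 and 7.52 ± 0.148 for Rragc (SD, n = 3). The following values are those of Depdc5. Its TPM was 0.141, 0.136 and 0.135 in PBS and 0.138, 0.117, 0.128 and 0 after Botox. After size factors it was 0.0998 to 0.112 in PBS, and Botox replicates 1 and 2 at 0.130 lay above that range while replicate 3 at 0.111 lay within it. The first 3 Botox libraries held 127, 126 and 100 estimated reads and Botox replicate 4 held 0, where the mean PBS share would have given 94.7. A count of 0 allows up to 0.00224 TPM in that library (3 reads), for counting error only. Depdc5 was not alone there: of 1849 genes with a mean of 80 to 160 estimated PBS reads, 75, or 4.06%, were listed at 0 in Botox replicate 4, against 2 in Botox replicate 2, 1 in Botox replicate 3 and 0 in the other libraries. The unclassified gene Gm43693, which lies within the Depdc5 span (chr5:33021045-33151580, mm39) on the same strand over 1249 bases, had 24 estimated reads in Botox replicate 4 and 7 to 24 in the other libraries. Depdc5 was under the filter, and its log2 fold change without the filter was -0.05 ± 0.06 (SE by limma, adjusted p = 1). The log2(TPM + 1) scale holds the value of a gene this low near 0. Its TPM means were 0.137 ± 0.00353 in PBS and, with the 0 included, 0.0963 ± 0.0641 after Botox (SD, n = 3 and 4).

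Ratios between GATOR1 genes within a library do not depend on how the library is scaled. Nprl2 made up 5.86%, 6.12% and 4.17% of the estimated reads of the 3 GATOR1 genes in PBS and 11.5%, 9.54%, 9.003% and 21.1% in the Botox libraries. The means were 5.38% ± 1.06 (SD, n = 3) and 12.8% ± 5.62 (SD, n = 4), and the value of Botox replicate 4 was taken with Depdc5 at 0. Against Nprl3 alone, Nprl2 made up 9.85%, 11.5% and 9.09% of the reads of the pair in PBS and 21.7%, 13.8%, 13.3% and 21.1% after Botox. The groups did not overlap in either ratio, but exact binomial intervals did: for the pair with Nprl3 they ran from 6.94% to 17.5% in PBS replicate 2 and from 9.002% to 18.6% in Botox replicate 3. These ratios use the Nprl2 reads that chose the gene and are a description.

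Castor1, which holds back GATOR2 when it has no arginine bound, had TPM values of 0.731, 0.953 and 0.673 in PBS and 0.912, 0, 0.399 and 0.350 after Botox. Botox replicate 1 lay within the PBS range and the other 3 Botox libraries lay below it. After size factors Botox replicate 4, at 0.769, was inside the PBS range of 0.516 to 0.783, replicate 1 was above it at 0.854 and replicate 3 below it at 0.345. It had 15, 31 and 23 estimated reads in PBS and 27, 0, 10 and 15 after Botox. In RPM, Botox replicate 4 stood at 1.69, level with PBS replicate 3 at 1.69. Castor1 (chr11:4168225-4172409, mm39) was under the filter, with a log2 fold change of -0.37 ± 0.22 without it (SE by limma, adjusted p = 0.94). Its TPM means were 0.785 ± 0.148 in PBS and 0.415 ± 0.375 after Botox (SD, n = 3 and 4), a difference that the log2(TPM + 1) scale understates.

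**Figure D2:**
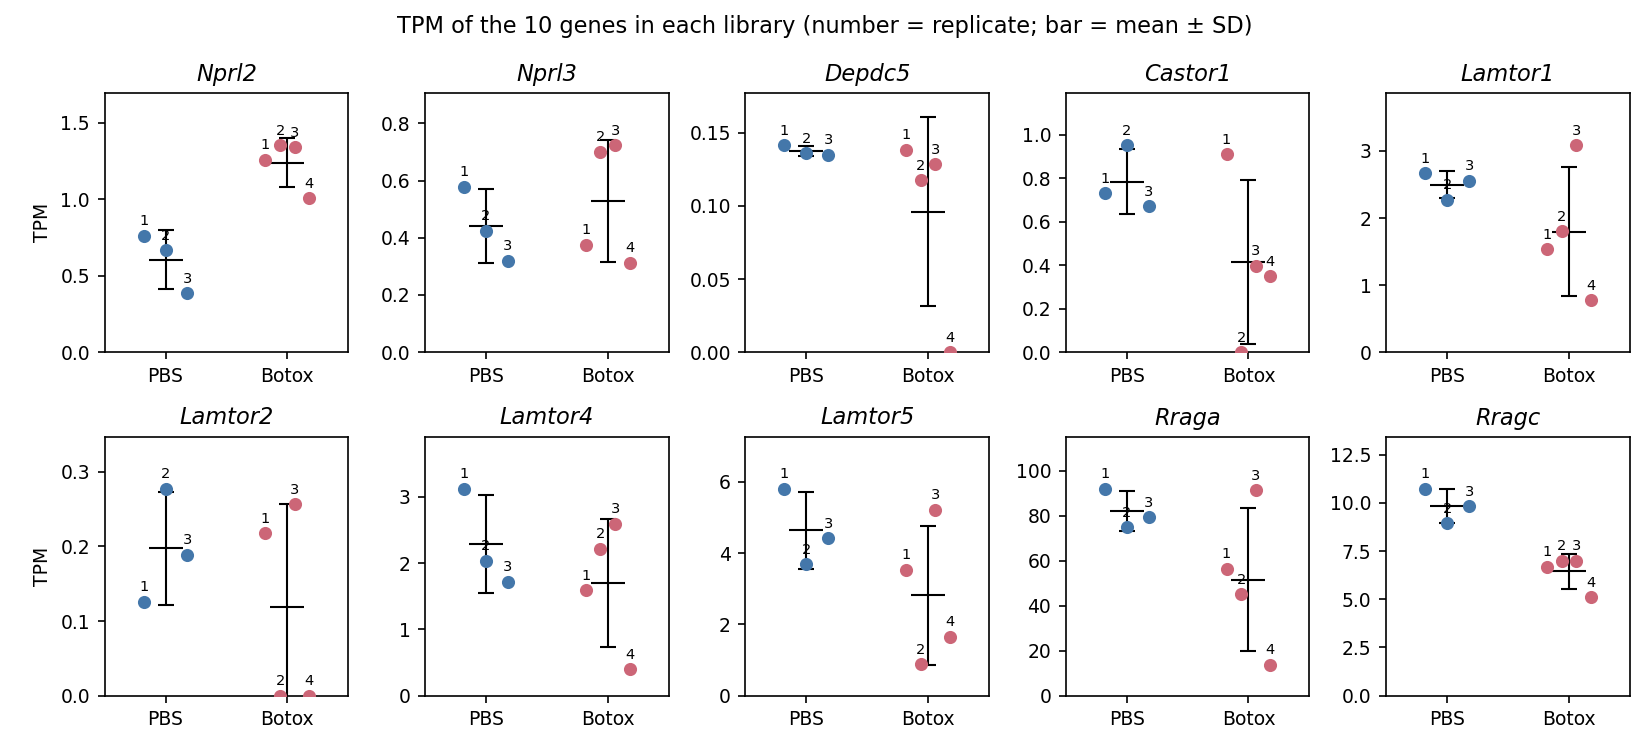
Deposited TPM of the 10 genes in each library (points, numbered by replicate), with the mean and SD of the 3 PBS and 4 Botox libraries; each panel has its own axis from 0. Nprl2 is the gene with all Botox values (1.01 to 1.35) above all PBS values (0.387 to 0.762), and Rragc the gene with all Botox values (5.11 to 7.001) below all PBS values (8.94 to 10.7).

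None of the 3 tested Ragulator genes passed the test. Lamtor1, the lipid-anchored subunit that holds the complex to the lysosomal membrane, had TPM values of 2.67, 2.27 and 2.56 in PBS and 1.54, 1.80, 3.09 and 0.771 after Botox. Botox replicate 3 lay above and the other 3 Botox libraries below the PBS range. The log2 fold change was -0.38 ± 0.32 (SE by limma, adjusted p = 0.44) on the deposited scale and 0.00198 after size factors (adjusted p = 1.00), so its sign depended on the scale. Lrrc51 and Tomt, on the opposite strand, overlap the span of Lamtor1 (chr7:101555111-101575882, mm39) in part, over 13692 and 456 bases, and reads of these stretches cannot be told apart.

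Lamtor4 and Lamtor5 form a pair of roadblock-fold subunits within Ragulator. The Lamtor4 TPM was 3.12, 2.03 and 1.72 in PBS and 1.59, 2.22, 2.59 and 0.398 after Botox, and the groups overlapped. Its log2 fold change was -0.35 ± 0.36 (SE by limma, adjusted p = 0.50) and -0.01 after size factors. Lamtor5 was at 5.81, 3.69 and 4.42 in PBS and 3.54, 0.879, 5.22 and 1.66 after Botox, with only Botox replicate 3 inside the PBS range. Its log2 fold change was -0.69 ± 0.41 (SE by limma, adjusted p = 0.42) and -0.23 after size factors. The lowest library differed between the pair, being Botox replicate 4 for Lamtor4 with 16 estimated reads and Botox replicate 2 for Lamtor5 with 38.

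Lamtor2, the partner of Lamtor3 in Ragulator, was the weakest member. It had 2, 7 and 5 estimated reads in PBS and 5, 0, 5 and 0 after Botox. At the mean PBS share, Botox replicates 2 and 4 would have held 4.23 and 3.58 reads where the 95% Poisson interval of a count of 0 reaches 3.69. So few reads give little precision in either group. After size factors the 2 Botox libraries with reads, at 0.204 and 0.222 TPM, lay inside the PBS range of 0.0890 to 0.228. Lamtor2 was under the filter, with a log2 fold change of -0.10 ± 0.11 without it (SE by limma, adjusted p = 1). Its TPM means were 0.197 ± 0.0759 in PBS and 0.119 ± 0.137 after Botox (SD, n = 3 and 4), a difference that the log2(TPM + 1) scale understates.

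Of the Rag GTPases, Rraga encodes RagA, the subunit whose GTP GATOR1 hydrolyses. Its TPM was 92.0, 75.0 and 79.2 in PBS and 56.4, 45.1, 91.3 and 13.8 after Botox. Botox replicate 3 lay within the PBS range, the others lay below it, and Botox replicate 4 was lowest. The means were 82.1 ± 8.88 (SD, n = 3) and 51.6 ± 32.0 (SD, n = 4), with a log2 fold change of -0.92 ± 0.57 (SE by limma, adjusted p = 0.42). This was the most negative value of the members, and after size factors it was -0.31 ± 0.30 (adjusted p = 0.93).

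Rragc encodes RagC, whose GDP-bound form pairs with GTP-bound RagA to hold mTORC1. Its TPM was 10.7, 8.94 and 9.83 in PBS and 6.70, 7.001, 6.9995 and 5.11 after Botox. It was the 1 member of 10 with every Botox value below every PBS value, a pattern that 22.4% of the 11260 tested genes shared. The means were 9.84 ± 0.898 (SD, n = 3) and 6.45 ± 0.906 (SD, n = 4). The log2 fold change was -0.55 ± 0.31 (SE by limma, adjusted p = 0.42) and turned to 0.01 ± 0.21 after size factors, where Botox replicate 4 was the highest library at 11.2 TPM, the groups overlapped and 3.78% of all tested genes had every Botox value below every PBS value. In RPM per kilobase of transcript the ranges also overlapped, 42.5 to 45.4 in PBS and 35.5 to 44.6 after Botox. Size factors without Botox replicates 2 and 4, a setting added after seeing the data, gave Rragc -0.25 ± 0.11 (SE by limma, adjusted p = 0.55). Botox replicates 1 and 3, at 6.28 and 6.07 TPM after size factors, lay below the PBS range of 7.35 to 7.63. The share of all genes with this pattern was not counted in that setting. A processed pseudogene, Gm12902, lies on the same strand over 322 bases of the Rragc span (chr4:123811239-123830790, mm39) and a noncoding gene, Gm12905, on the opposite strand over 578 bases.

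Across the members, 6 of 10 passed the filter on low values, Nprl2 among them only through the group in which it was high. In the limma fit 0 of the other 5 passed an adjusted p of 0.05, as did 0% of all tested genes in either direction, and none of the 5 had an unadjusted p under 0.05, where 7.37% of all genes were lower and 0.133% higher. After size factors 0 of the 5 passed either, beside 0.00888% of all genes higher and 0% lower by adjusted p and 2.33% higher and 2.05% lower by unadjusted p. The 5 had a median log2 fold change of -0.55, all negative, beside -0.46 over all genes, and -0.01 after size factors beside -0.04. The p-values set each group difference against the spread between libraries of a group, which limma moderates over all tested genes. That spread holds differences between tumors and between libraries, which cannot be told apart here. Leaving out single libraries changed which members lay wholly below PBS: without Botox replicate 3 they were Lamtor1, Lamtor5, Rraga and Rragc, and without Botox replicate 1 they were Depdc5, Castor1 and Rragc. Of the 6 tested members these were 4 and 1, where 43.3% and 32.2% of all tested genes lay wholly below PBS with the same library left out.

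**Figure D3:**
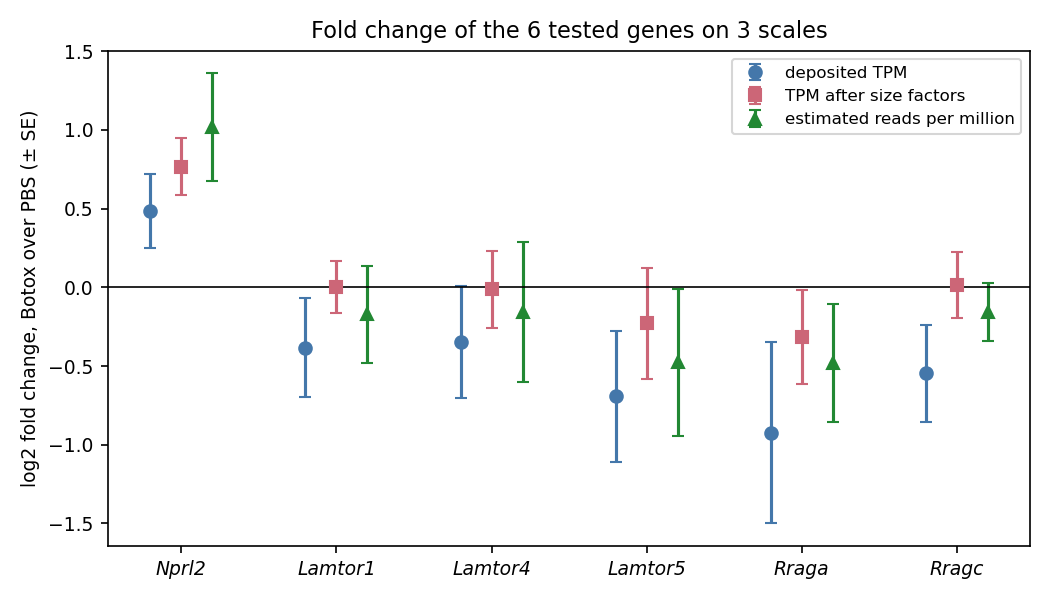
Log2 fold change of Botox over PBS with its SE for the 6 tested genes on the deposited TPM, after size factors and in RPM of estimated reads. Nprl2 is above 0 on all 3 scales (0.49, 0.77 and 1.02), Lamtor1 moves from -0.38 to 0.00198 and Rragc from -0.55 to 0.01 with size factors, and Rraga is below 0 on all 3. On each scale 1 was added before the log, so the sizes for a gene as low as Nprl2 cannot be compared between scales.

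The members were set beside 46 other genes of the pathway, of which 30 were tested. None passed the adjusted threshold in either direction, and Fnip1 had an unadjusted p under 0.05. All 30 had negative log2 fold changes with a median of -0.46, the same as the median of all genes, and 15 lay below it. After size factors 18 of 30 were negative with a median of -0.07. Of the 30, 7 had every Botox value below every PBS value and 0 had the opposite pattern, beside 22.4% and 0.151% of all tested genes, so the share of the 30 was near the background. After size factors 0 had either, beside 3.78% and 3.98%. Nprl2, chosen for that pattern, was the only one of the 36 tested members and pathway genes whose Botox values all lay above PBS. Of the closest relatives, Lamtor3, the Ragulator partner of Lamtor2, had a log2 fold change of -0.43 ± 0.34 (SE by limma, adjusted p = 0.44). Rragd, the alternative to Rragc, was under the filter at 0.0699 to 0.136 TPM in PBS and 0.0299 to 0.124 after Botox, and Rragb, the alternative to Rraga, had 2 estimated reads in PBS replicate 2 and 0 in the other libraries. By role, the median log2 fold change was -0.47 for 4 GATOR2 genes, which oppose GATOR1, -0.34 for 3 KICSTOR genes, which tether GATOR1 to the lysosome, -0.53 for 4 amino acid sensors other than Castor1, and -0.45 for 3 genes of mTORC1 itself. It was -0.56 for the 3 folliculin complex genes, -0.34 for 2 genes of the TSC complex and Rheb, -0.42 for 6 mTORC1 substrates and -0.51 for 4 BORC genes. The 3 genes of mTORC1 itself were Mlst8, Akt1s1 and Deptor, and Mtor and Rptor were under the filter. After size factors these medians ran from -0.17 for BORC to 0.09 for the TSC complex and Rheb, with KICSTOR, the mTORC1 genes and the substrates also at or above 0.

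The 6 pathway genes with the smallest p each had a limma adjusted p of 0.42. Fnip1 and Fnip2 encode partners of folliculin, the activator of RagC. Fnip1 was at 2.94 ± 0.225 TPM in PBS and 1.505 ± 0.802 after Botox (SD, n = 3 and 4), and Fnip2 was at 2.204 ± 0.478 and 1.18 ± 0.431. Rps6kb1, the S6 kinase that mTORC1 phosphorylates, was at 3.24 ± 0.603 and 1.70 ± 0.854. Castor2, the relative of Castor1, was at 1.83 ± 0.160 and 0.953 ± 0.553, and Bmt2, the SAM sensor also called Samtor, was at 1.39 ± 0.262 and 0.700 ± 0.363. Kxd1, of the BORC complex that binds Ragulator and moves lysosomes, was at 1.65 ± 0.148 and 0.905 ± 0.510. On the deposited scale it alone of the 6 had overlapping groups, where 22.4% of all tested genes lay wholly below PBS. After size factors the groups overlapped in all 6. The 6 were picked by their p in these same data, so the pattern is a description. Their log2 fold changes ran from -0.71 for Fnip1 to -0.51 for Kxd1, and after size factors from -0.32 for Fnip1 to -0.16 for Fnip2.

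**Figure D4:**
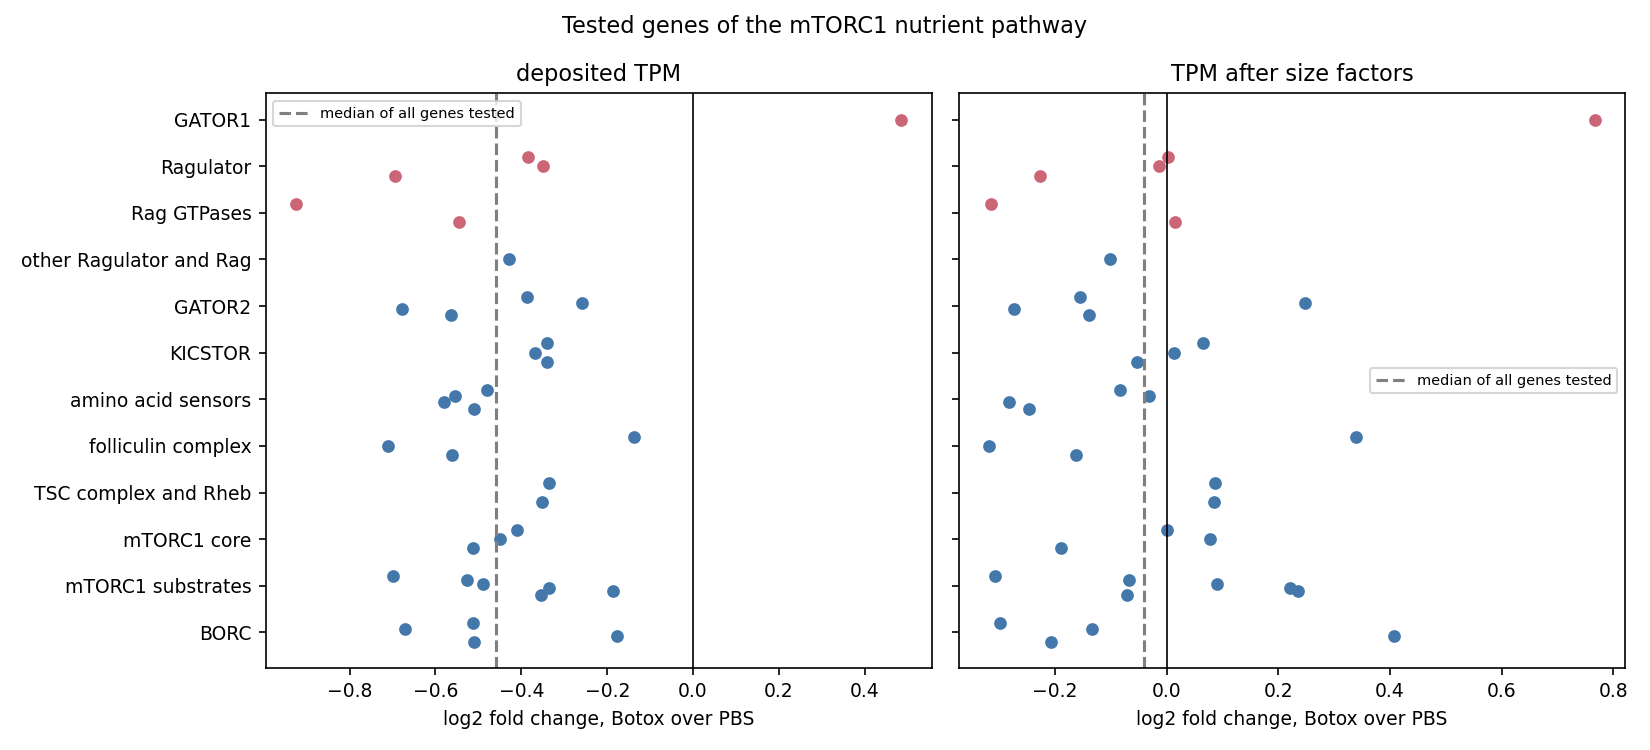
Log2 fold change of Botox over PBS for the tested genes of the mTORC1 nutrient pathway by complex (members red, other pathway genes blue), on the deposited TPM (left) and after size factors (right). The dashed line is the median of all tested genes, at -0.46 and -0.04; all genes but Nprl2, at 0.49, lie left of 0 on the deposited scale.

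Nprl2 sits in a gene-dense stretch of chromosome 9 that corresponds to the tumor suppressor region of human chromosome arm 3p, with 13 other protein-coding genes within 60 kb of its span. Of these 8 were tested, and all 8 had overlapping groups on the deposited scale. Cyb561d2, which encodes a membrane cytochrome and starts next to Nprl2 in the opposite direction, had 82, 150 and 165 estimated reads in PBS and 131, 72, 171 and 31 after Botox. Its log2 fold change was -0.54 ± 0.50 (SE by limma, adjusted p = 0.47), and -0.10 after size factors. Nprl2 made up 13.7%, 10.7% and 6.25% of the reads of this pair in PBS and 19.1%, 35.1%, 14.1% and 53.7% after Botox, with PBS replicate 1 and Botox replicate 3 close together. After size factors Tmem115 and Rassf1, a tumor suppressor gene, also lay wholly above PBS, as did 3.98% of all tested genes. Their log2 fold changes were 0.33 and 0.32 after size factors (limma adjusted p = 0.93 for each) and -0.24 and -0.19 on the deposited scale.

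**Figure D5:**
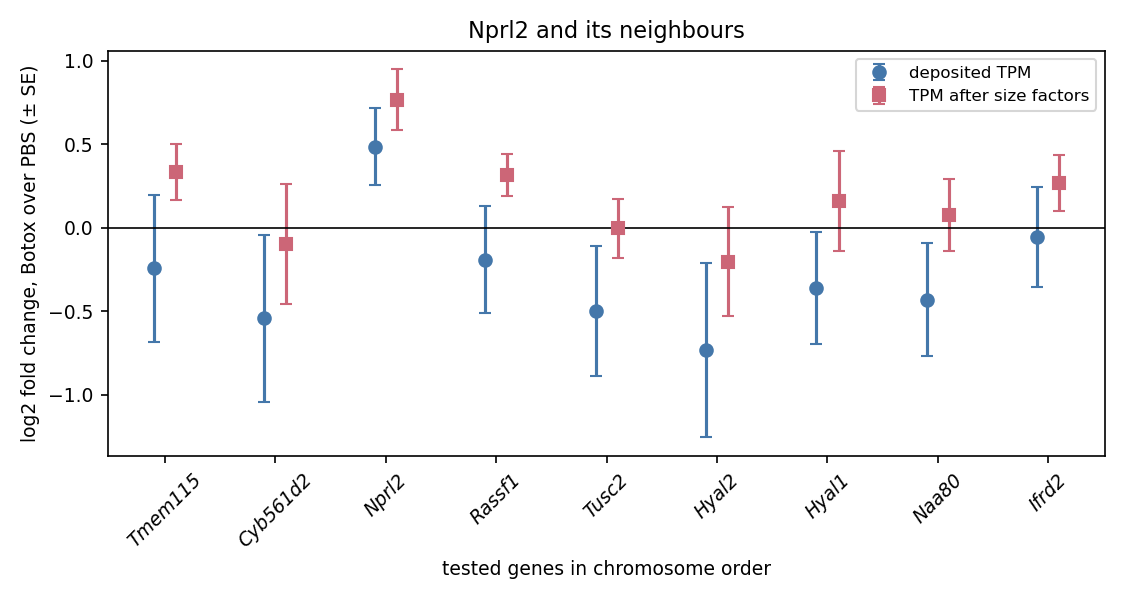
Log2 fold change of Botox over PBS with its SE for Nprl2 and its 8 tested neighbours in chromosome order, on the deposited TPM and after size factors. Nprl2 is the only one above 0 on the deposited scale (0.49), and the neighbours run from -0.73 for Hyal2 to -0.06 for Ifrd2.

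The patterns most like that of Nprl2 over the 7 libraries, by Pearson's r of log2(TPM + 1) after size factors, were those of Gm57286 at 0.98, Zgpat at 0.97, Arfgap1 at 0.97, Rps27a at 0.96 and 9430015G10Rik at 0.96. These genes share with Nprl2 the scaling of the same libraries. Against the other tested members r was 0.43 for Rragc, -0.13 for Lamtor1, -0.22 for Lamtor4, -0.25 for Lamtor5 and -0.69 for Rraga, and against Cyb561d2 it was -0.48. These values describe 7 libraries in 2 groups, of which Nprl2 was chosen to separate the groups.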

How the data were processed

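RNA from sorted tumor cells of 7 mice (3 PBS, 4 Botox) was sequenced. The authors deposited a table of TPM per gene; per the submitters' processing notes the build was mm39 and the tools Bowtie2 2.2.5, SAMtools and DESeq2, with no role given. A constant of 0.001 sits in every deposited TPM value, and a value at 0.001 was read as 0. The table's length is the genomic span: it equals the GENCODE M21 span in 96.8% of 21539 protein-coding genes. The size of 1 read per library was estimated from the steps of low values (88.0% to 90.04% of values under 20 reads lay within 0.1 of a whole number, as did 58 of 70 member values). Estimated reads describe depth and entered no count test.

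Groups were compared with limma 3.58.1 (R 4.3.3; intensity trend, two-sided, Benjamini-Hochberg at 0.05) on log2(TPM + 1) over the 11260 genes that reached 1 TPM in 3 or more libraries. The fit was run on simulated data with the same noise for every gene and large shifts, which checks the code and not its performance in these data. Size factors were medians of ratios over genes above 0 in every library. Other steps used Python 3.11.15, numpy 2.4.6, pandas 2.3.3 and scipy 1.17.1. Named besides the 10 members were the 6 tested pathway genes with the smallest p, the 5 genes most correlated with Nprl2, and genes overlapping a member. Genes near Nprl2 and those beside it in the ordering of 17 were chosen after their values were seen. The members and gene lists were chosen with earlier results of these data known. Alternatives were no filter, a pseudocount of 0.1, size factors, quantile normalization, protein-coding genes only, the replicate block and left-out libraries. RPM of estimated reads, and size factors without Botox replicates 2 and 4, were added after seeing the data. A deposited table of KEGG sets was not used. Promoter sequences come from RefSeq (GRCm38.p6) and their coordinates are not those of mm39.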

Additional observations from a re-analysis of the deposited data

Results flagged for a closer look

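Of 13 measures looked at in the 4 Botox libraries (the TPM of each member and 3 shares of Nprl2 reads), 2 had a library set far apart from the other 3, where chance sets about 1 in 20 groups apart. The Depdc5 TPM in Botox replicate 4 was 0, with the other Botox libraries at 0.117 to 0.138. The Rragc TPM in Botox replicate 4 was 5.11, with the other Botox libraries at 6.70 to 7.001. In estimated reads the genes differed in that library: Depdc5 had 0 and Rragc had 1027, beside 928, 1134 and 822 Rragc reads in Botox replicates 1 to 3.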

How the results depend on the processing

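Over 17 settings the log2 fold change of Nprl2 ran from 0.38 to 1.14. Its sign was fixed by the choice of the gene under most of them and says nothing of stability. The value moved by more than the replicate spread with a pseudocount of 0.1 (0.96), size factors (0.77), quantile normalization (1.00), protein-coding genes only (1.14) and RPM of estimated reads (1.02). All of these but the pseudocount of 0.1 added 1 before the log. That shrinks the change of a low gene by an amount that depends on the scale, so these sizes cannot be compared. The signs of other members turned with size factors (Lamtor1 0.00198, Rragc 0.0147), with quantile normalization (Lamtor1 0.0271, Lamtor4 0.0523) and with size factors without Botox replicates 2 and 4 (Lamtor1 0.0406, Lamtor4 0.0666, Lamtor5 0.118, Rraga 0.0443), and the cause was not tested. In the last of these settings Rragc stayed negative, at -0.25. None of the 5 tested members besides Nprl2 passed the threshold under any setting (lowest limma adjusted p 0.27). The number of all genes called higher was 1 with size factors and 1 with quantile normalization (Gm16304 in both), against 0, and the number called lower was 10 with no filter, against 0. Leaving out single libraries gave 0 to 3 higher and 0 to 73 lower, with 3 and 73 without Botox replicate 1 (the 3 were Gm16304, Gm20402 and 1700120K04Rik). Members below PBS in every Botox library numbered 0 with size factors, 0 with quantile normalization (6 tested members only) and 0 in RPM of estimated reads. The number was 1 (Rragc) with size factors without Botox replicates 2 and 4, where the share of all genes was not counted. Leaving out single libraries gave 1 to 4 of all 10 members, 3 without Botox replicate 1 and 4 without Botox replicate 3. Of the 6 tested members these were 1 and 4, beside 32.2% and 43.3% of all tested genes. Over the left-out libraries that share ran from 22.9% to 43.3%. With the replicate number as a block, 0 genes were called higher and 0 lower, and Nprl2 was at 0.54. Deviations of same-numbered libraries correlated at 0.0957, -0.03 and -0.19, and those of different-numbered libraries at -0.146 to 0.164. With so few libraries these values cannot show whether the numbers pair them. Lamtor2, Castor1 and Nprl2 rest on few estimated reads, with at most 39 per library. Total reads were similar in PBS replicate 1 (8.75 M) and Botox replicate 4 (8.88 M), where 0.383% and 51.0% of weak genes were listed at 0.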
